A study of Rattus norvegicus with 6 samples.

Results

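The genes of fatty acid oxidation and lipid synthesis described here are 48 enzymes, carriers and a regulator of these routes, chosen by symbol and grouped by role: 10 of uptake and activation, 23 of beta-oxidation and 15 of synthesis and storage. A gene was taken to be measured when a row of the deposited table carried a RefSeq accession that the rat RefSeq gene table pairs with its symbol. Of the 48 genes, 45 had exactly 1 row each, out of 26299 units tested, where a unit is a gene symbol with its rows averaged or a row without a symbol. *Srebf1*, *Agpat2* and *Pnpla2* had no matched row and were not analysed here, so that synthesis and storage was represented by 12 genes and the other classes were complete.

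Muscle fibres take up fatty acids from the blood, bind them in the cytosol and join them to coenzyme A, after which they are either burned or stored. For oxidation the acyl group is passed to carnitine, carried into the mitochondrion and shortened in repeated turns of beta-oxidation, each of which hands electrons to the respiratory chain. For storage, acyl chains that were taken up or newly made from citrate are elongated, desaturated and joined to glycerol. Around birth, muscle meets the fat of milk as a major fuel, and malonyl-CoA, the product of acetyl-CoA carboxylase, links the opposing routes because it blocks the entry of acyl groups into the mitochondrion.

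Skeletal muscle RNA of 3 lower birth weight (LBW) and 3 average birth weight (ABW) pups was hybridized to 6 single-colour NimbleGen arrays, 1 per pup, and the study asked how birth weight within the normal range relates to muscle gene expression. All pups were 1-day-old male Wistar rats with no treatment, and soleus and gastrocnemius were collected as one tissue. LBW pups lay in birth weight percentiles 5 to 25, while the ABW pups are placed in percentiles 25 to 75 by one label and in 50 to 75 by the protocol. The labels call the pups biological replicates without giving their litters, so p-values measure the spread between these pups whatever its source. Values are log2 signals, and a difference of 1 is a doubling. A signal cannot be compared between genes, because each has its own probes.

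The array medians ran from 8.70 to 8.76. LBW 2 stood nearer to the ABW pups than the other LBW pups did, with a correlation over rows of 0.9925 with ABW 1, 0.9913 with LBW 1 and 0.9872 with LBW 3. Of the skeletal muscle markers, creatine kinase *Ckm* read 15.05, 14.95 and 15.06 in LBW pups and 15.02, 15.02 and 14.83 in ABW pups, far above the array medians. The mean difference of the 15 markers from the ABW mean lay between 0.02 and 0.10 in LBW pups and between -0.05 and 0.07 in ABW pups. That difference compares the pups with each other and does not identify the tissue. Markers of bone (11 genes) stood 2.72, 0.45 and 3.56 above the ABW mean in LBW 1, 2 and 3, against -0.10 to 0.15 in ABW pups. Markers of osteoclasts (6 genes) stood 1.44, 0.10 and 2.40 above it in the same LBW pups, and those of neutrophil precursors (5 genes) 1.86, 0.86 and 1.67 above it. In a bulk sample, fewer cells of a type and less RNA per cell cannot be told apart. The part of these other tissues in the results below was not tested, and values without single pups are given where a pup decides a result.

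No measured fatty acid or lipid gene passed the threshold of the study, an unadjusted p under 0.05 with a change of at least 1.5-fold, in limma, where 4.27% of all units did. At an unadjusted p under 0.05 alone, 3 of the 45 genes (6.67%) passed, against 12.4% of all units, and all 3 were higher in LBW muscle, where 5.63% of all units passed upwards and 6.73% downwards. They were *Acsl4*, which activates long polyunsaturated fatty acids, *Cpt1b*, the muscle form of the enzyme that commits acyl groups to the mitochondrion, and *Crat*, which exchanges acetyl groups between coenzyme A and carnitine. After Benjamini-Hochberg adjustment over all units, limma left 0 genes of the whole table under 0.05, and the smallest adjusted p among the 45 was 0.338. The log2 differences of the 45 genes ran from -0.32 to 0.33 with a median of -0.02, which is also the median of all units. There were 20 genes with a higher and 25 with a lower LBW mean, against 11683 higher and 14616 lower over all 26299 units. For 28 of the 45 (62.2%, against 66.6% of all units) the 95% confidence interval of the difference lay within 1.5-fold in both directions.

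**Figure D1:**
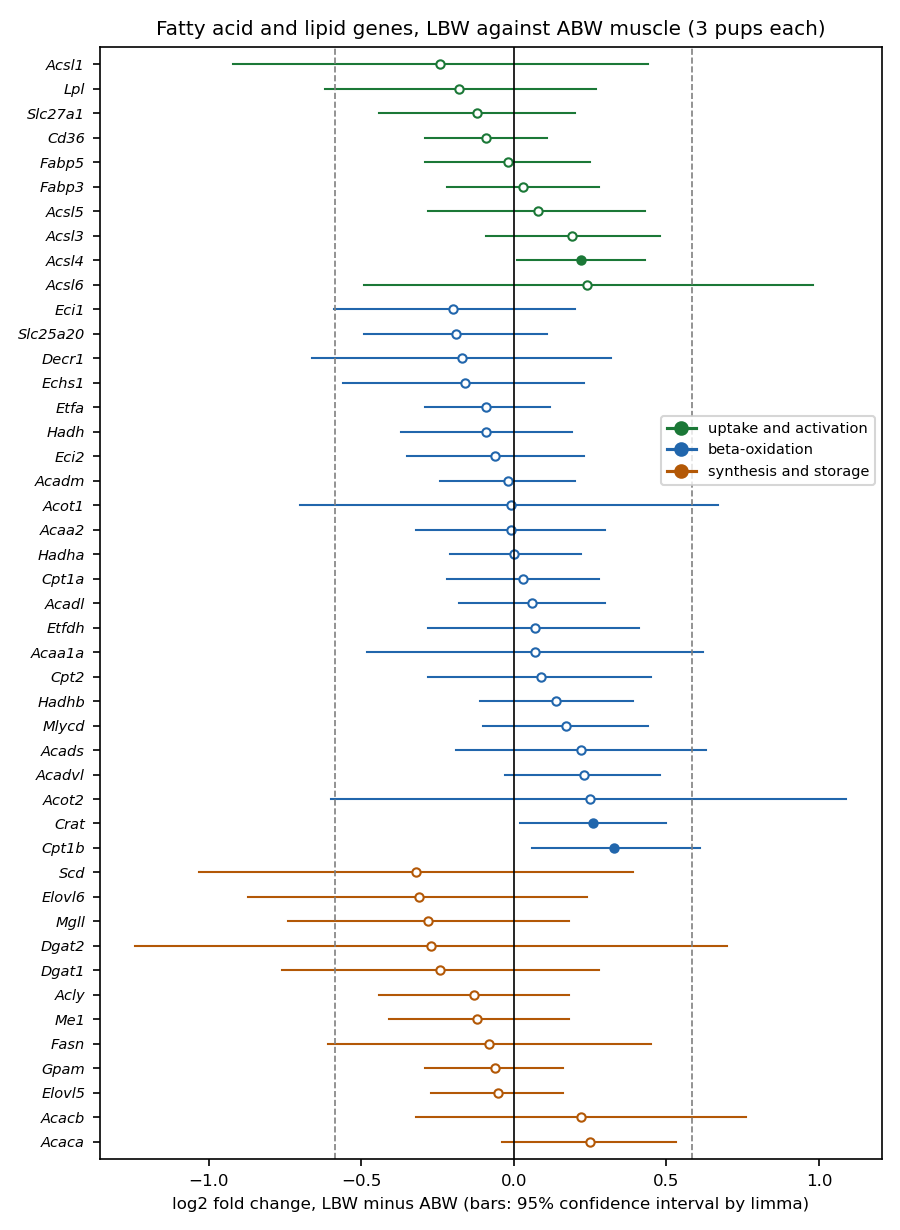
Log2 fold change of LBW over ABW muscle (horizontal axis, 3 pups per group) for the 45 measured genes, coloured by class and ordered by size within a class. Bars are 95% confidence intervals by limma, dashed lines mark 1.5-fold, and filled points mark an unadjusted p under 0.05. The 3 filled points are *Acsl4*, *Crat* and *Cpt1b*, all to the right of 0, and no point lies beyond a dashed line.

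Every LBW pup lay above every ABW pup in 4 genes and below every ABW pup in 1, together 11.1% of the 45. Over all units the values did not overlap with LBW higher in 7.27% and with LBW lower in 10.1%. The 4 genes with higher values were *Acsl4*, *Cpt1b*, *Crat* and *Acaca*, and the gene with lower values was *Cd36*. In an exact permutation test each of the 5 had a 2-sided p of 0.1, the smallest that 3 pups against 3 allow.

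Uptake and activation showed no common direction. Of its 10 genes, 5 had a higher and 5 a lower LBW mean, and the median log2 difference was 0.00. An unadjusted p under 0.05 in limma was passed by 1 (10.0%, against 12.4% of all units). The 3 genes of uptake at the cell surface were all slightly lower in LBW pups, none past the test. *Cd36*, the fatty acid translocase, read 13.95, 13.94 and 13.96 in LBW 1, 2 and 3 and 13.99, 14.01 and 14.13 in ABW 1, 2 and 3. The groups did not overlap, yet the log2 difference was only -0.09 (SE 0.08, 95% confidence interval -0.29 to 0.11, limma unadjusted p = 0.297). *Lpl*, the lipase that frees fatty acids from circulating triglyceride, differed by -0.18 (95% confidence interval -0.62 to 0.27), and the transporter *Slc27a1* by -0.12 (-0.44 to 0.20). Without ABW 1, whose *Lpl* value of 12.94 was the lowest of the 6, the *Lpl* difference was -0.37 and passed an unadjusted p under 0.05.

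The cytosolic fatty acid binding proteins barely moved. *Fabp3*, the form of heart and skeletal muscle, read 13.73, 13.68 and 13.80 in LBW pups and 13.86, 13.68 and 13.57 in ABW pups, a log2 difference of 0.03 (SE 0.10). *Fabp5*, which is also found in macrophages and skin, read 14.11, 13.92 and 13.74 in LBW pups and 13.99, 13.93 and 13.93 in ABW pups, a difference of -0.02 (SE 0.11). In both genes the LBW and ABW values were interleaved, and both confidence intervals lay within 1.5-fold.

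Among the 5 long-chain acyl-CoA synthetases, which trap fatty acids in the cell by joining them to coenzyme A, 4 had a higher LBW mean and *Acsl1* a lower one. *Acsl4* (row NM_053623) read 11.66, 11.69 and 11.59 in LBW pups and 11.49, 11.47 and 11.31 in ABW pups. All LBW values were higher, by 0.22 on average on the log2 scale (SE 0.09, 1.16-fold, limma unadjusted p = 0.0462, adjusted p = 0.394). That p was lost when any 1 pup was left out, with differences between 0.16 without ABW 3 and 0.25 without LBW 3 or ABW 1. *Acsl1*, the main synthetase of fat and oxidative muscle, read 13.04, 13.22 and 12.46 in LBW pups and 12.65, 13.53 and 13.26 in ABW pups, and differed by -0.24 (SE 0.28). Its lowest value was in LBW 3, the next in ABW 1, and the highest in ABW 2. *Acsl6*, a synthetase best known from brain, read 6.39, 6.82 and 5.69 in LBW pups and 6.36, 6.09 and 5.72 in ABW pups, a difference of 0.24 (SE 0.31). *Acsl6* is also the gene of the 45 that drops out when the dimmest 25% of rows are removed. *Acsl3* and *Acsl5*, forms tied to lipid droplets and mitochondria, differed by 0.19 (SE 0.12) and 0.08 (SE 0.15).

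Beta-oxidation was represented by all 23 listed genes, of which 13 had a higher and 10 a lower LBW mean. Their median log2 difference was 0.03, and 2 (8.7%, against 12.4% of all units) passed an unadjusted p under 0.05 in limma, both of the carnitine shuttle. This shuttle moves acyl groups across the inner mitochondrial membrane. With *Mlycd* counted in, which acts on the inhibitor malonyl-CoA and moves no acyl group, 5 of 6 genes of this step had a higher LBW mean.

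*Cpt1b* (row NM_013200) had the largest difference of the 45 genes. It read 13.27, 13.28 and 13.30 in LBW pups and 13.16, 12.88 and 12.80 in ABW pups. The LBW pups were almost level and above every ABW pup, with ABW 1 nearest to them. The log2 difference was 0.33 (SE 0.11, 95% confidence interval 0.06 to 0.61, 1.26-fold, limma unadjusted p = 0.0238, adjusted p = 0.338). Without ABW 1 it was 0.44 (unadjusted p = 0.00409), and without any other pup it was 0.26 to 0.34 with an unadjusted p from 0.0527 to 0.0774. Brown fat also expresses *Cpt1b*, and its defining marker *Ucp1* read 6.18, 5.50 and 5.30 in LBW pups and 5.49, 5.63 and 5.56 in ABW pups, with 1 LBW pup above and the others within or below the ABW range. Apart from LBW 1, each *Ucp1* value lay under the lower quartile of its array (6.17 to 6.23 over the arrays). The brown fat list held 6 measured genes, *Cpt1b* and *Ucp1* among them. Of these, 4 had a higher and 2 a lower LBW mean, with a median log2 difference of 0.06. The receptor *Adrb3* of this list differed by -1.14 (SE 0.45). Of the 15 muscle markers, 9 had a higher and 6 a lower LBW mean, with a median log2 difference of 0.03. None of the 15 passed an unadjusted p under 0.05 in limma, where 12.4% of all units passed. The slow-fibre troponin *Tnni1* read 14.16, 14.28 and 14.22 in LBW pups and 14.15, 13.89 and 13.82 in ABW pups, a difference of 0.27 (SE 0.11, limma unadjusted p = 0.0509), with ABW 1 nearest to the LBW pups as for *Cpt1b*. The slow myosin *Myh7* differed by 0.41 (SE 0.20, limma unadjusted p = 0.0883) with overlapping groups, and desmin, *Des*, named here after its values were seen, by 0.22 (SE 0.10, limma unadjusted p = 0.0583) without overlap. The slow-fibre troponin *Tnnc1* and myoglobin, *Mb*, also named after their values were seen, differed by 0.03 (SE 0.09) and 0.05 (SE 0.18) with overlapping groups. The parts of fibre type and of brown fat in the *Cpt1b* difference were not tested. *Cpt1a*, the form of liver and many other tissues, which is also present before muscle matures, read 10.89, 11.00 and 11.05 in LBW pups and 10.87, 11.11 and 10.86 in ABW pups. Its groups overlapped and differed by 0.03 (SE 0.11), with a confidence interval of -0.22 to 0.28 that lay within 1.5-fold.

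*Crat* (row NM_001004085) read 12.71, 12.81 and 12.62 in LBW pups and 12.54, 12.51 and 12.32 in ABW pups. All LBW values were higher, by 0.26 on average (SE 0.10, 1.20-fold, limma unadjusted p = 0.0380, adjusted p = 0.377). Without LBW 3 or without ABW 1 the difference was 0.31 and 0.30 and kept an unadjusted p under 0.05, while it lost it without LBW 1 (0.26), LBW 2 (0.21), ABW 2 (0.28) or ABW 3 (0.19). The other genes of this step did not pass. *Cpt2*, which hands the acyl group back to coenzyme A inside the mitochondrion, differed by 0.09 (SE 0.15). *Mlycd*, which breaks down the inhibitor malonyl-CoA, differed by 0.17 (SE 0.11). The carrier *Slc25a20*, which swaps acylcarnitine for carnitine, was the one shuttle gene with a lower LBW mean, at -0.19 (SE 0.12, limma unadjusted p = 0.172). Its LBW values were 11.40, 11.75 and 11.42, so that LBW 2 lay among the ABW values of 11.60, 11.76 and 11.77. Without LBW 2 the *Slc25a20* difference was -0.30 with an unadjusted p of 0.0287.

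Promoter sequence could be shown for *Acsl4* and *Crat*. *Cpt1b* had no matched promoter. The 120 bases before the annotated start, from RefSeq on GRCr8, are printed 5′ to 3′ on the strand of the gene. Capitals mark a GC box, searched as GGGCGG on both strands. *Acsl4* lies at chrX:110803262-110803381 on the minus strand and *Crat* at chr3:34087100-34087219 on the minus strand.
Acsl4: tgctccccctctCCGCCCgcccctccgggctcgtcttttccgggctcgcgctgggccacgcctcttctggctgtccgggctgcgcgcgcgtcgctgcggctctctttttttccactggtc
Crat: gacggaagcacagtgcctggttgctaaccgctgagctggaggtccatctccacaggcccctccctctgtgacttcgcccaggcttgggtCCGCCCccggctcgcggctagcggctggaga
A GC box was found in the 250 bases before the start of 19 of the 34 measured genes with a matched promoter (55.9%). Of all promoters in the table, 30.5% held it, and of the promoters of genes with a row on the array, 43.5%.

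**Figure D2:**
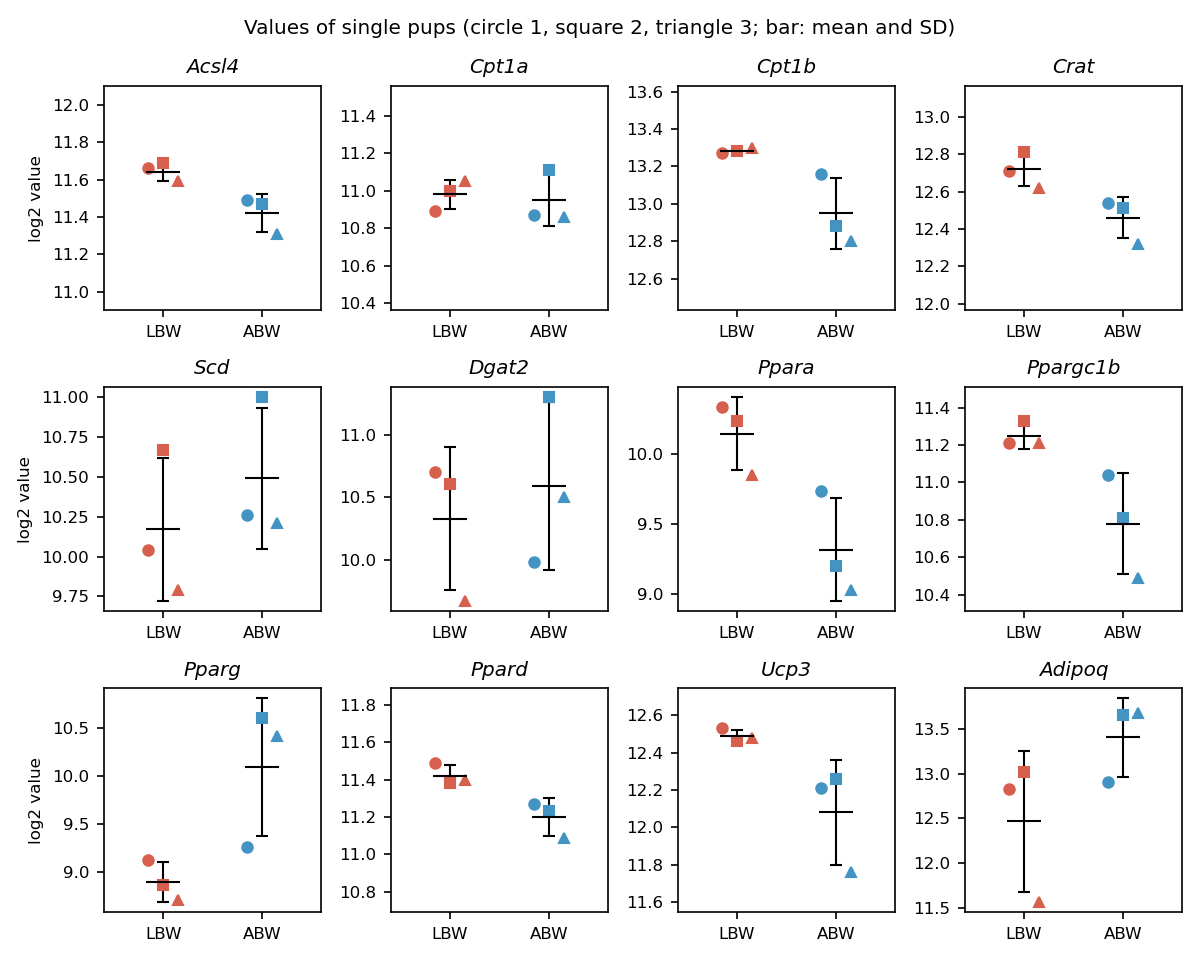
Log2 values of single pups (vertical axes, which differ in position and range between panels) for 5 fatty acid genes and *Cpt1a*, and for 6 genes outside the list, with circles, squares and triangles for replicates 1, 2 and 3. The bar is the mean with 1 SD (n = 3). LBW and ABW values are separate for *Acsl4*, *Cpt1b* and *Crat* and interleaved for *Cpt1a*, *Scd* and *Dgat2*.

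The mitochondrial spiral is the repeated cycle of dehydrogenation, hydration, dehydrogenation and cleavage. Its 9 genes split into 5 with a higher and 4 with a lower LBW mean. At an unadjusted p under 0.05 in limma 0 of them passed, against 12.4% of all units. For 8 of the 9 the confidence interval lay within 1.5-fold. *Hadha*, the alpha subunit of the trifunctional protein that handles long chains, read 13.20, 13.27 and 13.29 in LBW pups and 13.14, 13.32 and 13.30 in ABW pups. Both group means were 13.25, and the difference was 0.00 (SE 0.09). *Acaa2*, the thiolase that cleaves off acetyl-CoA, read 13.31, 13.35 and 13.02 in LBW pups and 13.21, 13.40 and 13.10 in ABW pups, a difference of -0.01 (SE 0.13). These were the smallest differences among the beta-oxidation genes.

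Acyl-CoA dehydrogenases open each turn of the spiral for chains of different length. *Acadvl*, for very long chains, read 12.39, 12.65 and 12.60 in LBW pups and 12.43, 12.29 and 12.23 in ABW pups. LBW 1 lay below ABW 1, and the difference of 0.23 (SE 0.11) had a limma unadjusted p of 0.0753. Without LBW 1 the *Acadvl* difference was 0.30 with an unadjusted p of 0.0313. *Acadl*, *Acadm* and *Acads*, for long, medium and short chains, differed by 0.06, -0.02 and 0.22 (SE 0.10, 0.09 and 0.17). *Hadhb*, the beta subunit of the trifunctional protein, differed by 0.14 (SE 0.11). The hydratase *Echs1* and the dehydrogenase *Hadh*, which act on shorter chains, differed by -0.16 (SE 0.17) and -0.09 (SE 0.12), and the lowest value of both was that of LBW 3.

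The 3 auxiliary enzymes for unsaturated fatty acids all had a lower LBW mean, and none passed. The isomerases *Eci1* and *Eci2* differed by -0.20 (SE 0.16) and -0.06 (SE 0.12), and the reductase *Decr1* by -0.17 (SE 0.20). *Decr1* read 12.64, 13.27 and 12.51 in LBW pups and 12.87, 12.99 and 13.05 in ABW pups. LBW 2 was thus the highest of the 6 pups, while LBW 1 and 3 were the lowest, and without LBW 2 the difference was -0.40 with an unadjusted p of 0.0116. Electron transfer from the dehydrogenases to the respiratory chain was measured by *Etfa* (-0.09, SE 0.08) and *Etfdh* (0.07, SE 0.14), with intervals within 1.5-fold.

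The remaining 3 genes, the peroxisomal thiolase *Acaa1a* and the acyl-CoA thioesterases *Acot1* and *Acot2*, varied most between pups of one group within this class, and none of their intervals lay within 1.5-fold. *Acot2*, which releases fatty acids in the mitochondrion, read 8.64, 9.03 and 7.93 in LBW pups and 8.88, 8.05 and 7.93 in ABW pups, a difference of 0.25 (SE 0.35). *Acot1*, its cytosolic relative, read 7.59, 8.35 and 8.41 in LBW pups and 8.58, 7.87 and 7.93 in ABW pups, a difference of -0.01 (SE 0.28). The thioesterases are close copies of each other, and whether their probes tell them apart was not tested. *Acaa1a* differed by 0.07 (SE 0.23), with LBW pups between 8.23 and 8.25 and ABW pups between 7.63 and 8.55.

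**Figure D3:**
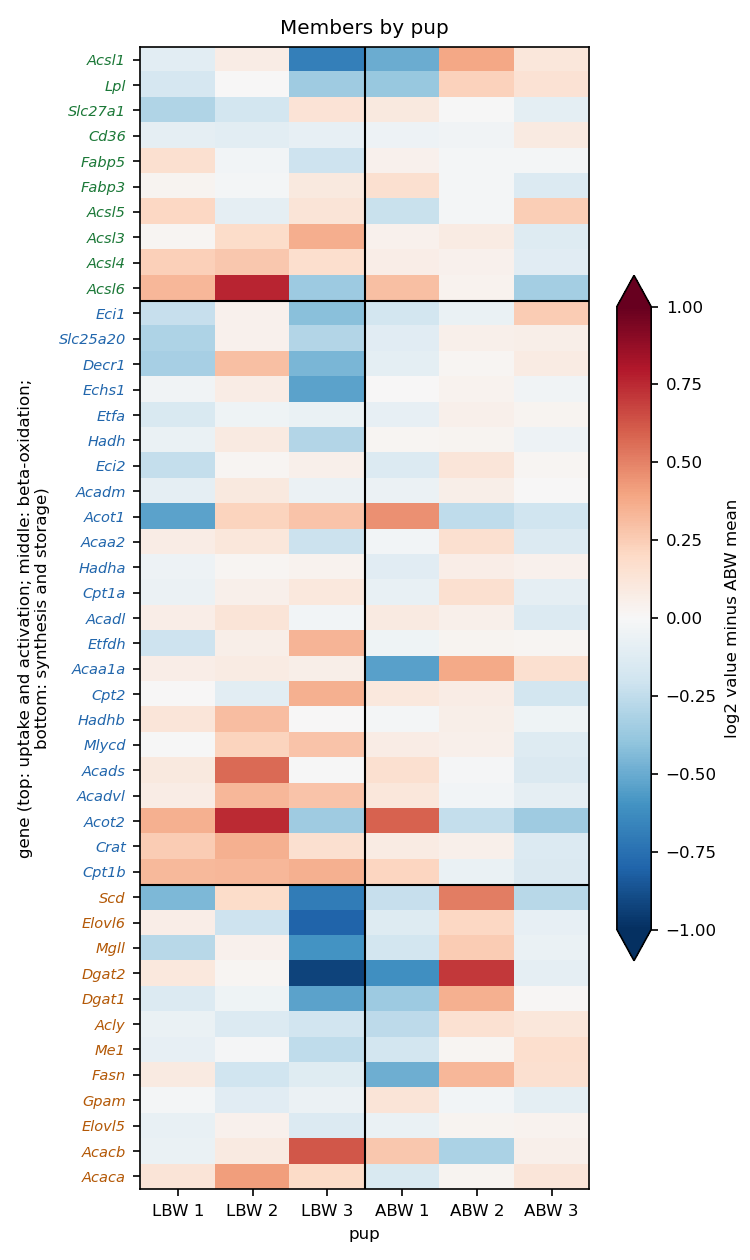
Log2 value of each pup minus the ABW mean of the gene (colour, from blue for lower to red for higher) for the 45 genes in rows and the 6 pups in columns, with black lines between the classes and between the groups. LBW 2 is red in most beta-oxidation genes, and in synthesis and storage LBW 3 is mostly blue and ABW 2 mostly red.

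Synthesis and storage had mostly lower LBW means. Of the 12 genes measured, 10 had a lower and 2 a higher LBW mean (14616 and 11683 over all units). The median log2 difference of the 12 was -0.12. None passed an unadjusted p under 0.05 in limma, where 12.4% of all units passed. The spread between pups was wider than in the other classes, with a median pooled SD of 0.30 over genes against 0.16 for uptake and activation, 0.15 for beta-oxidation and 0.16 over all units. Of the 12 genes, 5 had confidence intervals within 1.5-fold (41.7%), against 69.6% for beta-oxidation.

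The 5 genes of fatty acid synthesis gave differences in both directions. *Acly*, which makes cytosolic acetyl-CoA from citrate, differed by -0.13 (SE 0.13), and *Me1*, a source of NADPH, by -0.12 (SE 0.12). *Fasn*, the synthase itself, differed by -0.08 (SE 0.22), with ABW pups from 10.98 to 11.80 enclosing LBW pups from 11.27 to 11.56. The acetyl-CoA carboxylases, which make malonyl-CoA, were the genes of the class with a higher LBW mean. *Acaca*, the cytosolic form, read 9.97, 10.26 and 10.03 in LBW pups and 9.69, 9.87 and 9.96 in ABW pups. The groups were separated by 0.01 or less between LBW 1 and ABW 3, and the difference of 0.25 (SE 0.12) had a limma unadjusted p of 0.0821. *Acacb*, the form at the mitochondrion whose malonyl-CoA restrains the carnitine shuttle, read 8.69, 8.85 and 9.38 in LBW pups and 9.03, 8.44 and 8.81 in ABW pups, a difference of 0.22 (SE 0.23). Without ABW 1, *Acly* differed by -0.26 and passed an unadjusted p under 0.05.

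Desaturation and elongation held the most negative log2 differences of the class, in *Scd* and *Elovl6*. *Scd*, the desaturase that makes monounsaturated fatty acids, read 10.04, 10.67 and 9.79 in LBW pups and 10.26, 11.00 and 10.21 in ABW pups, a difference of -0.32 (SE 0.30, limma unadjusted p = 0.319). Replicate 2 was the highest of each group. *Elovl6*, which elongates saturated chains, read 10.25, 9.97 and 9.38 in LBW pups and 10.05, 10.39 and 10.10 in ABW pups, a difference of -0.31 (SE 0.23). LBW 3 lay apart below the other 5 pups, which overlapped. *Elovl5*, which elongates polyunsaturated chains, read 12.38, 12.50 and 12.32 in LBW pups and 12.39, 12.48 and 12.49 in ABW pups, a difference of -0.05 (SE 0.09).

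The 3 measured genes of triglyceride assembly and *Mgll*, which completes triglyceride breakdown, all had a lower LBW mean, and none passed. *Mgll* read 11.72, 12.04 and 11.40 in LBW pups and 11.81, 12.25 and 11.93 in ABW pups, a difference of -0.28 (SE 0.19). *Dgat2*, which adds the last acyl chain, had the widest spread of the 45 genes. It read 10.70, 10.61 and 9.67 in LBW pups and 9.98, 11.30 and 10.50 in ABW pups, a range of 1.63 against a difference of -0.27 (SE 0.40). LBW 3 was the lowest pup and ABW 2 the highest. *Dgat1*, the other enzyme of that step, differed by -0.24 (SE 0.22) with the same pups at its ends. *Gpam*, the mitochondrial enzyme that starts assembly, read 9.77, 9.68 and 9.73 in LBW pups and 9.92, 9.76 and 9.69 in ABW pups, and its difference of -0.06 (SE 0.09) was among the smallest of the class.

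The classes were compared pup by pup as the mean over genes of the difference from the ABW mean. For beta-oxidation this mean was -0.04, 0.18 and -0.02 in LBW 1, 2 and 3, and 0.02, 0.03 and -0.05 in ABW 1, 2 and 3. LBW 2 alone stood above the ABW pups, and it was the highest of the 6 pups in 10 of the 23 genes. For uptake and activation the mean was 0.03, 0.08 and -0.08 in LBW pups and -0.04, 0.07 and -0.02 in ABW pups, with full overlap. For synthesis and storage it was -0.06, 0.01 and -0.29 in LBW pups and -0.19, 0.18 and 0.00 in ABW pups. LBW 3 was the lowest pup in 7 of these 12 genes, and ABW 2 the highest in 7. Beta-oxidation minus synthesis and storage was 0.02, 0.17 and 0.27 in LBW pups and 0.21, -0.15 and -0.06 in ABW pups. ABW 1 therefore lay above LBW 1 and LBW 2, and the groups overlapped in this balance.

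The synthesis and storage median of -0.12 moved with single pups. It was -0.29 without ABW 1, and -0.06 without LBW 3 or without ABW 2. The beta-oxidation median ran from -0.01 to 0.08 and the uptake and activation median from -0.04 to 0.03 with single pups left out, so both lay on either side of 0.

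Markers of fat cells had the same lowest and highest pup as synthesis and storage, but not the same order throughout. The marker list for adipocytes, with the fatty acid genes taken out, held 14 measured genes, all with a lower LBW mean. Of them, 4 passed the threshold of the study, where 4.27% of all units did (*Lep*, *Pparg*, *Adrb3* and *Aqp7*). The list was chosen with earlier results of these data known, and the study itself lists *Lep*, *Pparg* and *Adrb3* as lowered on these arrays. The count is therefore no independent support. The mean difference of the 14 markers from the ABW mean was -0.58, -0.33 and -1.28 in LBW 1, 2 and 3, and -0.59, 0.45 and 0.14 in ABW 1, 2 and 3. LBW 3 was thus the lowest and ABW 2 the highest pup for the fat cell markers as for synthesis and storage, and ABW 1 lay below the ABW mean in 13 of the 14 markers and in 10 of the 12 synthesis and storage genes. LBW 1 was level with ABW 1 in the markers (-0.58 and -0.59) but above it in synthesis and storage (-0.06 and -0.19). It lay below the ABW mean in 12 of the 14 markers and in 8 of the 12 genes. Summed on the linear scale, the 14 markers ranged from 42000 to 58600 in LBW pups and from 55300 to 83100 in ABW pups. The brightest gene weighs most in this sum. It was *Fabp4*, named here after its values were seen, at 14.72 to 14.98 over the pups. The adipokine *Adipoq* read 12.83, 13.02 and 11.56 in LBW pups and 12.91, 13.66 and 13.68 in ABW pups, a difference of -0.94 (SE 0.42, limma unadjusted p = 0.0621). LBW 3 lay far below the other pups, and the *Adipoq* difference was -0.49 without it (unadjusted p = 0.117), -1.22 without LBW 2 (0.0332) and -1.19 without ABW 1 (0.0406). By qRT-PCR and western blot the study reports *Adipoq* as lowered in LBW muscle. The hormone *Lep* read 5.91, 5.96 and 5.75 in LBW pups and 6.05, 8.09 and 8.18 in ABW pups, so that ABW 1 was close to the LBW pups. The LBW values and that of ABW 1 lay under the lower quartile of their arrays (6.17 to 6.19). The *Lep* difference of -1.57 (SE 0.55) kept its call without ABW 1 only. Without any other single pup it was -1.20 to -1.61 with an unadjusted p of 0.0556 to 0.0889. The study also reports *Lep* as lowered by qRT-PCR on the same RNA. The calls of the lipolytic receptor *Adrb3* (-1.14) and the glycerol channel *Aqp7* (-0.65) were lost without LBW 1, LBW 3 or ABW 2, and that of *Adrb3* also without ABW 3, with differences of -0.69 to -1.20 and of -0.50 to -0.59 in those fits. ABW 2 also stood apart in markers of keratinocytes (6 genes, one of them *Fabp5*), whose mean difference from the ABW mean was 0.86 in ABW 2, -0.56 and -0.30 in ABW 1 and 3, and -0.48, -0.33 and -0.43 in LBW pups. The keratins *Krt1* and *Krt5* read 8.49 and 7.95 in ABW 2 and at most 6.18 and 6.20 in the other pups. Summed on the linear scale, the 6 markers ranged from 14100 to 18000 in LBW pups and from 16000 to 16900 in ABW pups. *Fabp5*, which read 13.74 to 14.11 over the pups, had by far the largest signal of the 6. This sum therefore mostly gave *Fabp5* and cannot show the keratins. The part of fat cells and of skin in the synthesis and storage values was not tested.

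**Figure D4:**
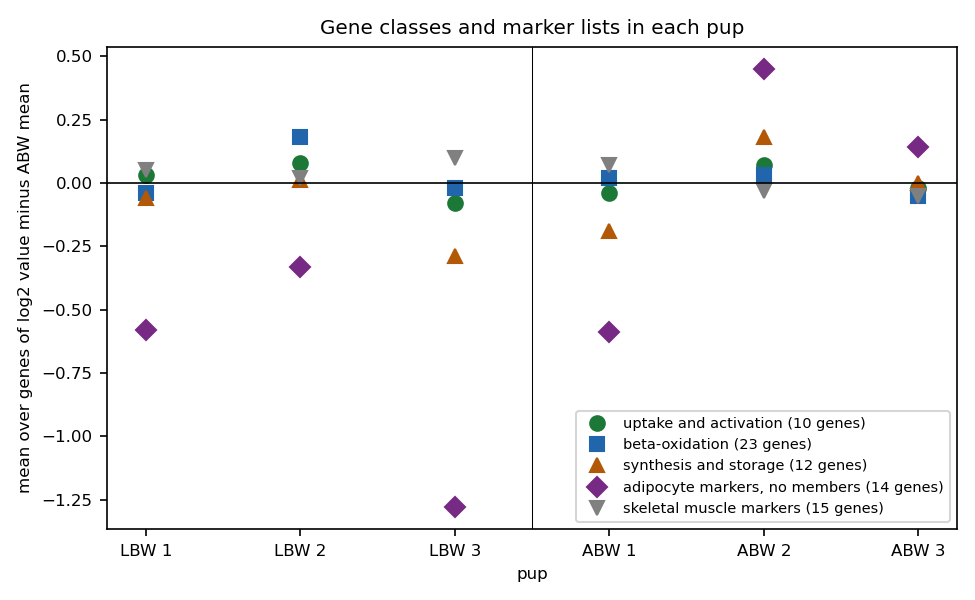
Mean over genes of the log2 value minus the ABW mean (vertical axis) in each of the 6 pups, for the 3 gene classes, the 14 adipocyte markers that are not among the 45 genes, and the 15 skeletal muscle markers. Synthesis and storage has its lowest mean (-0.29) in LBW 3 and its highest (0.18) in ABW 2, as do the adipocyte markers (-1.28 and 0.45), while the mean of the muscle markers lies between -0.05 and 0.10.

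Further genes of the same routes were examined as lists, which were chosen with earlier results of these data known. Of 20 measured genes of peroxisomal oxidation and related steps, 7 had a higher and 13 a lower LBW mean, the median was -0.06, and 1 passed the threshold of the study (*Abcd2*, lower), where 4.27% of all units passed. *Abcd2*, a peroxisomal importer of very long-chain acyl-CoA that is also rich in fat tissue, read 9.62, 10.14 and 8.52 in LBW pups and 10.13, 10.68 and 10.51 in ABW pups, a difference of -1.02 (SE 0.40, limma unadjusted p = 0.0417, adjusted p = 0.383). The groups overlapped between LBW 2 and ABW 1. Its call was lost without LBW 1, LBW 3, ABW 2 or ABW 3, and without LBW 3 the difference was -0.57.

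Of 15 further genes of uptake and activation, 0 passed an unadjusted p under 0.05 in limma, where 12.4% of all units passed. The median of the 15 was -0.06. The most changed were the synthetase *Acsbg1* (-0.37, SE 0.20) and the liver binding protein *Fabp1* (-0.33, SE 0.32). Of 29 further genes of synthesis and storage, 24 had a lower and 5 a higher LBW mean (14616 and 11683 over all units). The median of the 29 was -0.14. In this list 5 (17.2%) passed an unadjusted p under 0.05 in limma, all lower, where 12.4% of all units passed in either direction and 6.73% downwards, and 2 passed the threshold of the study, where 4.27% of all units did. *G0s2*, an inhibitor of triglyceride lipolysis, differed by -0.72 (SE 0.26), and *Nr1h3*, the sterol receptor LXR alpha that drives lipogenic genes, by -0.65 (SE 0.22). *G0s2* lost its call without LBW 2, LBW 3, ABW 2 or ABW 3, with differences of -0.49 to -0.69 and an unadjusted p of 0.0756 to 0.0926. *Nr1h3* lost it without LBW 1, ABW 2 or ABW 3, with differences of -0.49 to -0.61 and an unadjusted p of 0.0621 to 0.0707. *Agpat4*, an acyltransferase of phosphatidic acid synthesis named here after its values were seen, read 9.99, 9.95 and 10.02 in LBW pups and 10.42, 10.47 and 10.45 in ABW pups. The pups of each group lay within 0.10 of each other, and the difference was -0.47 (SE 0.08, 0.724-fold, limma unadjusted p = 0.000688, adjusted p = 0.214), short of the fold threshold. It kept an unadjusted p under 0.05 without any single pup, with differences of -0.45 to -0.48. The mean of these 29 genes was -0.13, -0.07 and -0.49 in LBW pups and -0.21, 0.15 and 0.06 in ABW pups, again lowest in LBW 3 and highest in ABW 2. *Lipe* and *Thrsp* stand both in this list and among the fat cell markers.

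Fatty acid oxidation is switched on by nuclear receptors of the PPAR family with RXR partners and PGC-1 coactivators. A list of regulators and related genes such as *Ucp3* held 24 measured genes. At an unadjusted p under 0.05 in limma, 4 were higher and 2 lower (25.0%, against 5.63% upwards, 6.73% downwards and 12.4% in all over the whole table). Of the list, 2 passed the threshold of the study, where 4.27% of all units passed. The list was chosen with earlier results of these data known and includes *Pparg*, which the study reports as lowered. Its shares are therefore no independent support. *Ppara*, the receptor that drives oxidation genes in liver, heart and muscle, read 10.34, 10.24 and 9.85 in LBW pups and 9.74, 9.20 and 9.03 in ABW pups. All LBW values were higher, by 0.82 (SE 0.22, 1.77-fold, limma unadjusted p = 0.00778, adjusted p = 0.286), and the call held without any single pup, with differences of 0.68 to 1.03. *Pparg*, the receptor of fat cell formation, read 9.12, 8.86 and 8.70 in LBW pups and 9.26, 10.60 and 10.42 in ABW pups. The groups did not overlap, although ABW 1 was close to LBW 1, and the difference was -1.20 (SE 0.35, limma unadjusted p = 0.0122, adjusted p = 0.302). Its call held without any single pup, with differences of -0.95 to -1.62 and a limma unadjusted p of 8.19e-05 to 0.0448. The study also reports *Pparg* as lowered by qRT-PCR on the same RNA and by western blot. *Pparg* also belongs to the fat cell markers described above.

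*Ppard*, the PPAR form most abundant in muscle, read 11.49, 11.38 and 11.40 in LBW pups and 11.27, 11.23 and 11.09 in ABW pups, a difference of 0.23 (SE 0.09, limma unadjusted p = 0.0418). That p was lost without any single pup other than ABW 1. The coactivator *Ppargc1a* differed by -0.01 (SE 0.12) and the partner *Rxra* by 0.01 (SE 0.09), both with overlapping groups. By qRT-PCR and western blot, which are other measures than the arrays, the study reports *Rxra* as lowered in LBW muscle. The other 3 genes of this list with an unadjusted p under 0.05, *Prkag2*, *Ppargc1b* and *Ucp3*, are named here after their values were seen. *Prkag2*, a regulatory subunit of the energy sensor AMPK, read 9.85, 9.93 and 9.75 in LBW pups and 10.19, 10.16 and 10.29 in ABW pups, lower in every LBW pup by a mean difference of -0.37 (SE 0.09, limma unadjusted p = 0.00538). The coactivator *Ppargc1b* and the mitochondrial carrier *Ucp3* were higher in all LBW pups. *Ppargc1b* read 11.21, 11.33 and 11.21 in LBW pups and 11.04, 10.81 and 10.49 in ABW pups (difference 0.47, SE 0.15, limma unadjusted p = 0.0167), and that p was 0.0511 without LBW 2. *Ucp3* read 12.53, 12.46 and 12.48 in LBW pups and 12.21, 12.26 and 11.76 in ABW pups, a difference of 0.41 (SE 0.15, limma unadjusted p = 0.0294). Without ABW 3, the pup with the lowest value, the *Ucp3* difference was 0.25, and its p exceeded 0.05 when any 1 LBW pup was left out.

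PPAR and RXR bind repeats of the half-site AGGTCA, so the promoters of the measured genes were searched for it on both strands over 250 bases before the start. The half-site was present in 5 of the 34 genes with a matched promoter (14.7%), in 14.1% of all promoters and in 12.4% of those of genes with a row on the array. The 5 windows of 46 bases are shown because *Ppara* and *Pparg* passed the threshold of the study, although not after adjustment, with the half-site in capitals, read as TGACCT where it lies on the other strand. They are given 5′ to 3′ on the strand of the gene, from RefSeq on GRCr8, at chr12:48138344-48138389 (minus), chr10:55236849-55236894 (minus), chr1:204333574-204333619 (minus), chr10:13961136-13961181 (plus) and chr16:18312717-18312762 (plus).
Acacb: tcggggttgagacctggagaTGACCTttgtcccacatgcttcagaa
Acadvl: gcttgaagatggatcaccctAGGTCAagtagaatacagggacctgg
Echs1: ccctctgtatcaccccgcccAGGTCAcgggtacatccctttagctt
Eci1: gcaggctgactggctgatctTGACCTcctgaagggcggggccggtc
Slc27a1: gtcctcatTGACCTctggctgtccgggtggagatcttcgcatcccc
The log2 differences of these 5 genes were 0.22, 0.23, -0.16, -0.20 and -0.12, and none passed an unadjusted p under 0.05 in limma. The whole repeat, AGGTCA, any base and AGGTCA, was in 0 of the 34 promoters and in 0.0508% of all, and the sterol element TCACNCCAC in 0 of the 34 and in 0.974% of all. A match is a run of letters, and binding was not measured.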

How the data were processed

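Total RNA of skeletal muscle from 3 LBW and 3 ABW pups was labelled with Cy3 and hybridized to NimbleGen arrays with 5 probes per transcript. The authors deposited 1 log2 value per transcript and pup for 26419 rows, after normalization by R scripts of their own with Bioconductor. The submitters' processing notes name RMA. Background correction is not given in the sources used here, and the methods name a 2-tailed Student's test or ANOVA for the data in general and none for the arrays, and the deposited values carry no detection calls.

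Rows were named through the RefSeq gene table of GRCr8 (9747 rows, 9627 symbols), rows of a symbol were averaged, and the 26299 units were fitted with limma 3.58.1 in R 4.3.3 (lmFit, eBayes, 2-sided, Benjamini-Hochberg over all units). The pooled SD is that of both groups. The script was tested on simulated data. Arrays carry no count depth, and their number limits the precision. No 2 arrays were duplicates (at most 5 identical values per pair).

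Any member could be named. By rule, all 6 values were given for members with an unadjusted p under 0.05 and for the 3 most and 2 least changed of each class, and in other lists genes past the study threshold (at most 6) or the 2 most changed could be named, with some regulators and fat markers fixed by name. The members and lists were chosen with earlier results of these data known. Some genes of these lists are not reported here. Promoters were matched by symbol for 34 of the 45 genes and not for *Lpl*, *Fabp5*, *Cpt1b*, *Acadl*, *Acaa2*, *Decr1*, *Acaca*, *Fasn*, *Elovl6*, *Dgat1* and *Dgat2*. Alternatives were the fit without each pup, with a replicate block, with quantile or median normalization, without the dimmest 25% of rows, with eBayes trend or robust variance, on single rows, by the methods' test (2-tailed, Student) and at a fold of at least 2.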

Additional observations from a re-analysis of the deposited data

How the results depend on the processing

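The count of fatty acid and lipid genes past the threshold of the study was 0 by limma with every alternative run and by the methods' test. At an unadjusted p under 0.05 the count was 3, and it was also 3 (the same genes) with quantile normalization, an intensity trend, a robust variance, single rows and the methods' test. It was 1 with each array centred on its median and 1 without the dimmest 25% of rows (*Cpt1b* in both). With single pups left out it ran from 0 (without ABW 2 or ABW 3) to 4 (without ABW 1), and it was 1 without LBW 1 or LBW 3 and 2 without LBW 2. The cause was not tested.

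The labels number the pups of both groups 1 to 3. Pups with one number, each taken relative to its group mean, correlated at 0.087, 0.104 and 0.055, so the numbers were not taken to pair the pups. With the replicate block the count at an unadjusted p under 0.05 stayed 3, with *Scd* in place of *Acsl4*, and 1230 units of the whole table were called.

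Of all units 1124 were called, 584 by the methods' test, 335 at a fold of at least 2, and 798 to 1546 with single pups left out. After adjustment limma gave 125 units under 0.05 without LBW 2, none of them among the 45 genes, and 0 otherwise. With single pups left out the class medians ran from -0.29 to -0.06 for synthesis and storage (-0.12 with all pups), -0.01 to 0.08 for beta-oxidation and -0.04 to 0.03 for uptake and activation.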
